A study of Homo sapiens with 8 samples.

Results

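The clustered protocadherins are cell-surface adhesion proteins encoded in 3 neighbouring arrays on the long arm of human chromosome 5, named alpha, beta and gamma. All protein-coding genes of the 3 arrays were taken by symbol, which gave 53 members among the 58440 genes counted: 15 in the alpha cluster, 16 in the beta cluster and 22 in the gamma cluster. Pseudogenes and antisense genes of the arrays were left out. The study profiled polyA RNA from HEK293, a human embryonic kidney line. Its labels describe 8 samples in 4 groups of 2. Cells with stable overexpression of HTR1E, which encodes a Gi-coupled receptor for serotonin, and control HEK293 cells were each collected without ligand or with serotonin (1 µM for 1 h). All groups were serum-starved for 3 h. The labels do not say whether the HTR1E-stable line is 1 clone or a pool, nor whether samples of a group came from separate cultures, so p-values measure only the spread between these samples.

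Each library name gives a treatment and begins its second part with the letter A or B, with 2 libraries for each letter and treatment, and no label ties a letter to a cell line. The libraries of letter B are called B and BR, as in their names. The letter in the name was used to form 2 sets of 4 libraries. In the A libraries HTR1E stood at 202 and 202 CPM (counts-per-million, relative to all counts of the library) without ligand, and at 253 and 249 CPM with serotonin. In the B and BR libraries it stood at 0 and 0 CPM without ligand and at 0.255 and 0.399 CPM with serotonin. The sets are therefore called HTR1E-high (A) and HTR1E-low (B) libraries. That they are the overexpressing and the control line is read from the transcript itself and is stated by no label. Every direction below is HTR1E-high over HTR1E-low, or serotonin over no ligand.

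Alpha and gamma members share a design. Each has its own promoter and a large first exon that encodes the extracellular cadherin repeats, the transmembrane stretch and part of the cytoplasmic tail, and this exon is spliced to a set of constant exons common to its cluster. Beta members are coded by single large exons without constant ones. Neurons each express a small choice of alternate isoforms, matched between cell surfaces by homophilic binding, and the promoter choice involves CTCF, cohesin and DNA methylation, while the C-type isoforms at the end of the alpha and gamma arrays are used more uniformly.

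The start regions of the members with the most counts are shown first, because isoform choice in these arrays is a choice of promoter. Capitals mark the letters CGCT, the core of the sequence element shared by most of these promoters, at its most upstream copy on the gene strand within 100 bases before the RefSeq start (GRCh38.p14). The 5 members shown are the most counted alpha and beta members and the 3 most counted gamma members.
PCDHA10: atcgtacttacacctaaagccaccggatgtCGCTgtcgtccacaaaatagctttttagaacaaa
PCDHB2: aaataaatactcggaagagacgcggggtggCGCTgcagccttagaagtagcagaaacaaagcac
PCDHGC3: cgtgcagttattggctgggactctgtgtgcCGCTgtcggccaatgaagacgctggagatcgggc
PCDHGB5: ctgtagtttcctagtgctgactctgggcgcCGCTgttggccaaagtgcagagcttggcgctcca
PCDHGA11: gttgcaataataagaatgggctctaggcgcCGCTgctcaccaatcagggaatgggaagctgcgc

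These windows lie on the plus strand at chr5:140855827-140855890 (PCDHA10), chr5:141094530-141094593 (PCDHB2), chr5:141475866-141475929 (PCDHGC3), chr5:141397849-141397912 (PCDHGB5) and chr5:141420958-141421021 (PCDHGA11). The capitals begin 40, 55, 70, 68 and 63 bases before the start, in that order. For PCDHGB5, which has 2 RefSeq starts, the one of lower coordinate was used. RefSeq promoters, each from 250 bases before to 50 after a start, were found for 47 of the 53 members, with 52 entries in all. CGCT on either strand was present in 98.1% of the member entries (51 of 52) and in 24584 of all 35116 promoters of the same length. Limited to the gene strand and the 100 bases before the start, a search added after the sequences were seen, it was present in 84.6% of member entries and 28.7% of all promoters. The letters GGNGGCAG, part of the CTCF motif and also searched on both strands, were in 1.92% of member entries and 16.7% of all promoters. These are matches of letters and not sites of binding.

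Libraries held 2604885 to 9072278 counts. The library B without ligand was the shallowest, and 54.4% of its counts came from mitochondrial genes. BR with serotonin had 36.3%, and the other 6 libraries had 17.9% to 24.6%. Marker levels are given as CPM of the normalised library size. Of 7 HEK293 markers, 6 were above 1 CPM in every library, among them VIM and KRT8, while the leukocyte gene PTPRC was at 0 counts in all 8. The summed HEK293 markers ran from 680 to 873 CPM in HTR1E-high and from 471 to 674 CPM in HTR1E-low libraries. Of 13 markers of other cell types, 2 were above 1 CPM in every library, COL1A1 and CDKN2A, and the summed 13 ran from 146 to 187 CPM and from 82.9 to 186 CPM. The member genes gave 175 to 534 counts a library and 2883 in all, so precision is limited throughout. Levels below are CPM of the normalised library size. In bulk RNA, fewer cells with a transcript and less of it per cell cannot be told apart.

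Most counts in these HEK293 libraries came from part of the arrays. Of the 53 members, 49 had at least 1 count in some library, 20 had a count in all 8, and 15 passed the low-count filter: 1 alpha, 3 beta and 11 gamma genes. The remaining 38 had totals of 0 to 40 counts over all libraries. At this depth a low total does not show that a member is not transcribed. No count was seen for PCDHA2, PCDHA5, PCDHA7 and PCDHB1. The gamma cluster gave 1903 counts, the alpha cluster 557 and the beta cluster 423.

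To compare genes, CPM was divided by the exon length that no other gene shares on that strand. On this per-kilobase scale PCDHGC3, a C-type gamma isoform, was highest at 3.08 ± 1.54 CPM per kb (SD, n = 8 libraries). PCDHGB5 followed at 2.62 ± 1.71 CPM per kb, and these neighbours in the order differed by less than their spread. PCDHGA11 stood at 1.08 ± 0.81 CPM per kb. PCDHA10 was the highest alpha isoform at 0.705 ± 0.417 CPM per kb, and PCDHB2 the highest beta isoform at 0.568 ± 0.372 CPM per kb. PCDHGA10, PCDHGB7, PCDHGB6, PCDHGC4 and PCDHGA9 came next with means of 0.512, 0.5, 0.481, 0.458 and 0.454 CPM per kb, none of which differed from its neighbours beyond the spread over libraries.

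**Figure D1:**
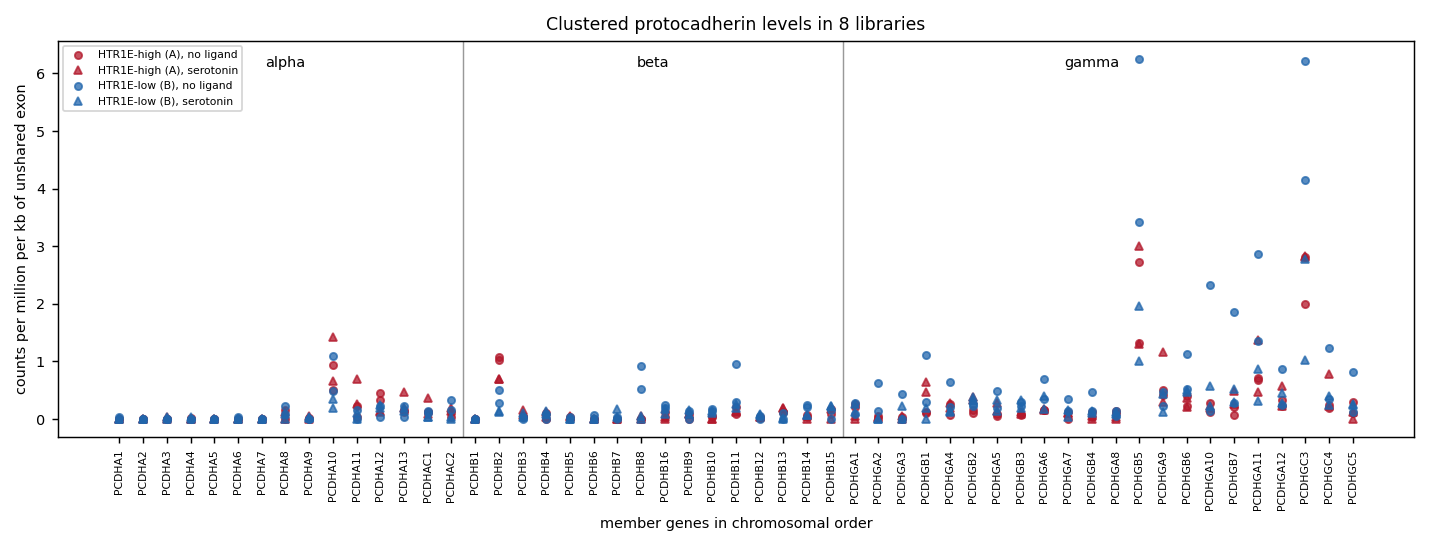
Level of each of the 53 members in chromosomal order (x axis) as CPM per kilobase of unshared exon (y axis), 1 point per library. PCDHGC3 and PCDHGB5 stand highest, PCDHA10 leads the alpha cluster and PCDHB2 the beta cluster, and the highest gamma points belong to B without ligand, the library with 54.4% mitochondrial counts.

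C-type isoforms did not behave as 1 block. PCDHGC3 occupies chr5:141475947-141512979 on the plus strand, of which 3251 of 5432 exonic bases are its own. It had 535 counts in all. PCDHGC4 had 58 counts and PCDHGC5 30, and in the alpha cluster PCDHAC1 had 29 and PCDHAC2 21. PCDHGC3 is a widely expressed isoform that has been described outside the nervous system. Only PCDHGC3 and PCDHGC4 of these 5 passed the filter.

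PCDHA10 had most of the alpha cluster's counts. The gene spans chr5:140855883-141012344, with 10002 of its 15224 exonic bases unshared. Its share of alpha counts was 70.3% in the HTR1E-high libraries together (282 of 401 counts, 95% exact binomial interval 65.6% to 74.8%) and 65.4% in the HTR1E-low libraries (102 of 156, 57.4% to 72.8%). These intervals cover counting error only, and the shares are of counts, with no correction for exon length. The next alpha members by counts were PCDHA11 with 38 and PCDHA12 with 35. Their unshared exons are shorter, at 3360 and 2588 bases. Per kilobase PCDHA10 stood at 0.705 CPM against 0.187 CPM for PCDHA11 and 0.219 CPM for PCDHA12. It was highest on that scale too, by a smaller margin than in counts. PCDHA1 to PCDHA9 together are the members nearest the start of the array, and each had a total of 11 counts or fewer.

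PCDHB2 was the 1 member whose difference between the letter sets passed the test in edgeR. It is a beta isoform at chr5:141094578-141098703, plus strand, with all of its 4126 exonic bases unshared. Without ligand it stood at 4.48 and 4.23 CPM in HTR1E-high and at 1.15 and 2.09 CPM in HTR1E-low libraries. With serotonin it stood at 2.85 and 2.84 CPM in HTR1E-high and at 0.611 and 0.503 CPM in HTR1E-low libraries. All 4 HTR1E-high libraries lay above all 4 HTR1E-low ones, a pattern that 9.96% of all 17144 genes tested showed in this direction. The counts behind these levels were 42, 43, 23 and 17 against 2, 19, 5 and 3. PCDHB2 passed the low-count filter through its HTR1E-high counts. Among HTR1E-low libraries only BR without ligand, with 19 counts, reached the filter's level, and the filter asks for 2 libraries.

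The share of PCDHB2 within the beta cluster was also higher in every HTR1E-high library, although the test of the share did not pass after adjustment. PCDHB2 made up 57.5%, 58.1%, 41.8% and 48.6% of beta counts in the HTR1E-high libraries, the first pair without ligand and the second with serotonin. In B, BR without ligand and B, BR with serotonin the shares were 11.1%, 21.6%, 11.1% and 8.57%. The mean share was 51.5% ± 7.79 against 13.1% ± 5.8 (SD, n = 4 each), and this ratio within a library does not depend on scaling between libraries. An exact two-sided permutation test over libraries, added after the data were seen, gave p = 0.0286, the smallest that 4 against 4 allows and the value that any pair of non-overlapping sets gives, and 0.0857 after Benjamini-Hochberg adjustment over the 3 leading isoforms compared. PCDHB2 was picked as the leading beta member from these same counts, and it led through the HTR1E-high libraries. In the HTR1E-low libraries together PCDHB11 had 32 of 186 beta counts (17.2%) and PCDHB2 had 29 (15.6%). In the HTR1E-high libraries PCDHB11 had 20 of 237 (8.44%). The permutation p for PCDHB2 is therefore no independent support. For PCDHA10 the mean shares were 70.1% ± 2.56 and 64.8% ± 9.39 (exact permutation p = 0.371, adjusted 0.371). For PCDHGC3 they were 30.2% ± 5.98 and 23.9% ± 6.65 (exact permutation p = 0.229, adjusted 0.343).

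**Figure D2:**
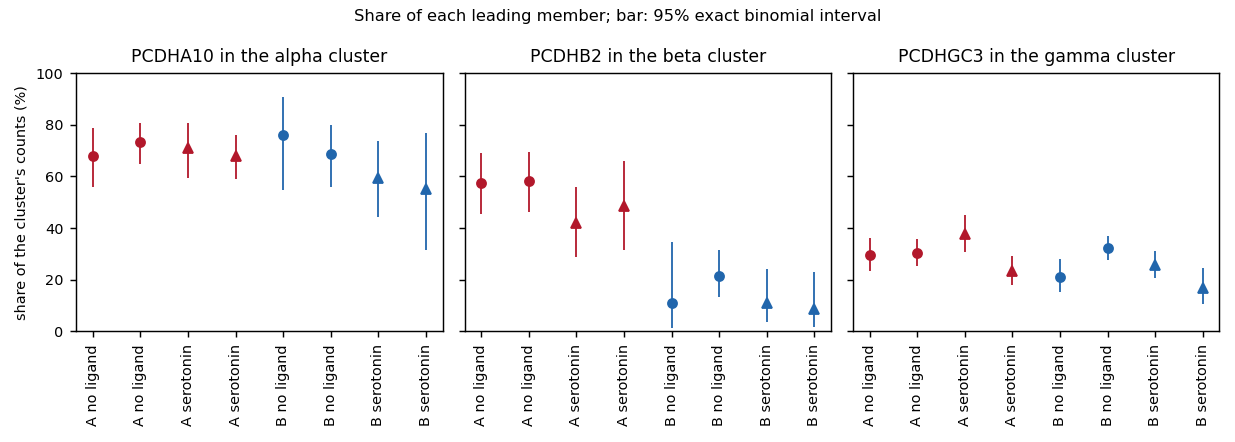
Share of the alpha, beta or gamma cluster's counts that came from its leading member (y axis, %) in each of the 8 libraries (x axis, by letter and treatment). The leading member is the one with the most counts over all 8 libraries. Bars are 95% exact binomial intervals. Red is HTR1E-high (A) and blue HTR1E-low (B), circles no ligand and triangles serotonin. PCDHB2 lies between 41.8% and 58.1% in A and between 8.57% and 21.6% in B, while the PCDHA10 and PCDHGC3 shares overlap between the letters.

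Without ligand, PCDHB2 was higher in HTR1E-high libraries by 1.25 on the log2 scale (SE 0.519), which did not pass the test (edgeR quasi-likelihood, adjusted p = 0.222). After serotonin the difference was 2.30 (SE 0.586, adjusted p = 0.0471) and passed. Whether these 2 differences differ from each other is the difference of the serotonin responses, which for PCDHB2 was 1.05 (SE 0.784, edgeR adjusted p = 0.508). Since PCDHB2 entered the test through the HTR1E-high libraries, where it was high, its p-values between the sets are no independent support. The call after serotonin is marginal. It was lost in edgeR when any 1 of the 4 HTR1E-high libraries, B with serotonin or BR with serotonin was left out (adjusted p 0.095 to 0.309, log2 difference 2.18 to 2.43), and with DESeq2 (adjusted p = 0.0577). Averaged over both treatments, a comparison chosen after the data were seen, PCDHB2 was higher by 1.78 (SE 0.392, edgeR adjusted p = 0.0176), and by 1.61 (adjusted p = 0.0101) without B no ligand and BR serotonin, the 2 libraries richest in mitochondrial counts. Leaving out any 1 HTR1E-high library or BR with serotonin ended that call too, at adjusted p of 0.0553 to 0.0935.

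Over the 15 members tested, 0 passed without ligand in edgeR, where 2.42% of all genes did (1.52% higher and 0.904% lower). There were 6 members with an unadjusted p under 0.05, beside 19.2% of all genes, and DESeq2 called 1. That 1 was PCDHB8, whose limits are given below. After serotonin 1 of 15 passed, PCDHB2, beside 5.25% of all genes in either direction (2.33% higher and 2.92% lower), and 3 had an unadjusted p under 0.05, beside 24.3% of all genes. Averaged over both treatments it was again 1 of 15, beside 9.36% of all genes (5.27% higher and 4.09% lower), and 4 had an unadjusted p under 0.05, beside 25.5% of all genes. The median log2 difference of the 15 was -1.49 without ligand and 0.49 after serotonin, against 0.03 and 0.02 for all genes tested. PCDHB8 is the lowest of the 15 without ligand at its fitted value and at the ratio given for it below, so the first median is the same with either.

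PCDHB8, a beta isoform, had 0 counts in both HTR1E-high libraries without ligand and 4 and 12 counts in the HTR1E-low ones. In levels this was 0 and 0 CPM against 2.3 and 1.32 CPM. With 3 counts over the 2 HTR1E-high libraries taken as the limit of a count of 0, the HTR1E-low pair was 9.67-fold higher. That ratio leaves out the counting error of the 16 HTR1E-low counts, so it is not a lower bound. The adjusted p was 0.0593 in edgeR and 0.0315 in DESeq2. PCDHB8 passed the low-count filter only through this HTR1E-low pair, where it was high, so these p-values are no independent support. With serotonin PCDHB8 had 1 and 0 counts in HTR1E-high and 1 and 0 counts in HTR1E-low libraries, so the difference was not seen there. Beta genes are close paralogs, and read pairs that map to several of them may be missing from these counts.

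The gamma members went the other way from PCDHB2 where they separated the sets, and none passed the test. PCDHGB6 stood at 1.07 and 1.87 CPM without ligand and 0.991 and 1.67 CPM with serotonin in HTR1E-high libraries. In HTR1E-low libraries it stood at 5.18 and 2.42 CPM without ligand and 2.32 and 2.18 CPM with serotonin, above all HTR1E-high values. PCDHGA6 was at 0.854, 0.886, 0.867 and 1 CPM in the HTR1E-high libraries and at 4.03, 1.98, 2.32 and 1.01 CPM in the HTR1E-low ones, which also do not overlap, by a narrow margin in BR with serotonin. Such separation below was seen in 7.62% of all genes tested. PCDHGA6 passed the low-count filter only through HTR1E-low libraries, where it was high, so its separation and p-value are no independent support. Averaged over both treatments the log2 differences were -0.99 (SE 0.447, edgeR adjusted p = 0.194) for PCDHGB6 and -1.23 (SE 0.498, adjusted p = 0.15) for PCDHGA6.

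PCDHGC3 stood at 6.51 and 9.16 CPM without ligand and 9.17 and 9.19 CPM with serotonin in HTR1E-high libraries, and at 20.2 and 13.5, then 9.04 and 3.35 CPM in HTR1E-low libraries. The 4 HTR1E-high values were close together, and the HTR1E-low values ran from the highest to the lowest of all 8. Its log2 difference was -1.05 (SE 0.438) without ligand and 0.54 (SE 0.441) after serotonin, with edgeR adjusted p of 0.224 and 0.481. PCDHGB5 and PCDHGA11 had their extremes in the same libraries, with 16.7 and 10.4 CPM in B without ligand and 2.68 and 1.17 CPM in BR with serotonin, while their HTR1E-high values were spread more widely, from 3.47 to 8.02 CPM and from 1.73 to 5.01 CPM. The extremes are in the libraries with 54.4% and 36.3% mitochondrial counts. The part of RNA quality in these extremes was not tested.

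PCDHGA10 and PCDHGB7 differed by -2.24 and -2.42 (SE 1.1 and 1.05) without ligand, with edgeR adjusted p of 0.293 and 0.237. PCDHGA10 was at 10.4 CPM in B without ligand, 18 counts, and at 0.66 CPM in BR without ligand. Without B no ligand its difference turned to 0.41. Without BR no ligand, a refit in which 20.1% of all genes passed, the differences were -3.43 (adjusted p = 0.00542) and -3.57 (adjusted p = 0.0189), and without B no ligand the PCDHGB7 difference was -0.94, so both sizes rest on B without ligand. PCDHGB1, PCDHB11, PCDHGA11 and PCDHGB5 had differences of -2.12, -1.77, -1.49 and -1.17 without ligand, at edgeR adjusted p of 0.236 to 0.315. Without B no ligand these were -1.326, -0.992, -1.02 and -0.797, in that order. Their direction stayed, while their size also leaned on that library. PCDHB11 passed the low-count filter only through the HTR1E-low pair without ligand, where it was high.

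PCDHA10 stood at 5.02 and 9.45 CPM without ligand and 6.69 and 14.2 CPM with serotonin in HTR1E-high libraries. In HTR1E-low libraries it stood at 10.9 and 4.84, then 3.42 and 1.84 CPM. The sets overlapped without ligand (log2 difference 0.03, SE 0.549, edgeR adjusted p = 0.981) and did not overlap after serotonin (1.94, SE 0.561, adjusted p = 0.0669). The second difference passed with DESeq2 (adjusted p = 0.0227). It also passed in edgeR without B no ligand and BR serotonin (1.58, adjusted p = 0.0205).

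No further member passed after serotonin. PCDHGB1, with 10 and 10 counts in HTR1E-high and 0 and 3 counts in HTR1E-low libraries, had the largest fitted difference of the 15, 2.62, on few counts (SE 1.13, edgeR adjusted p = 0.183). PCDHGA9 differed by 1.26 and PCDHGB5 by 0.49, while PCDHGB6, PCDHGA6, PCDHGA10 and PCDHB11 differed by -0.78, -0.86, -0.96 and -0.77, at edgeR adjusted p of 0.389 to 0.625. The gamma members thus lay on both sides of 0, in contrast with the negative values of 10 of the 11 gamma members without ligand.

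**Figure D3:**
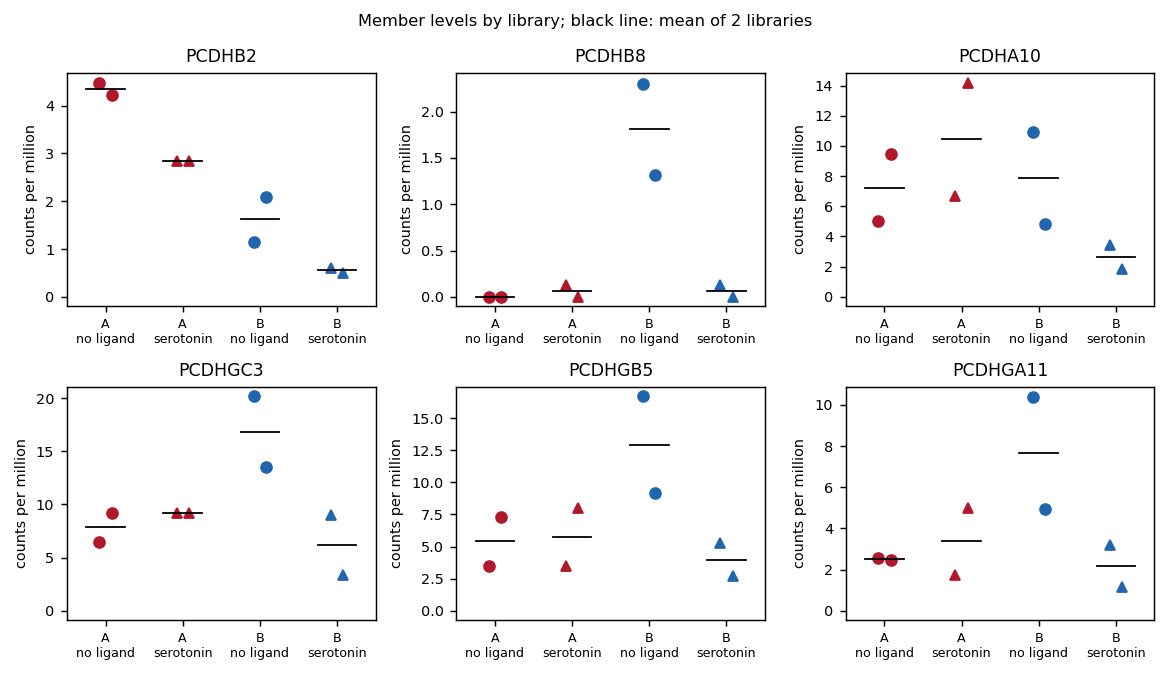
CPM of 6 members (y axis, 1 panel each) in the 4 sets of 2 libraries (x axis), with each library as a point and the mean as a black line. PCDHB2 is higher in both A sets than in both B sets, PCDHB8 is at or near 0 outside B without ligand, and the gamma members are highest in B without ligand, up to 20.2 CPM for PCDHGC3.

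**Figure D4:**
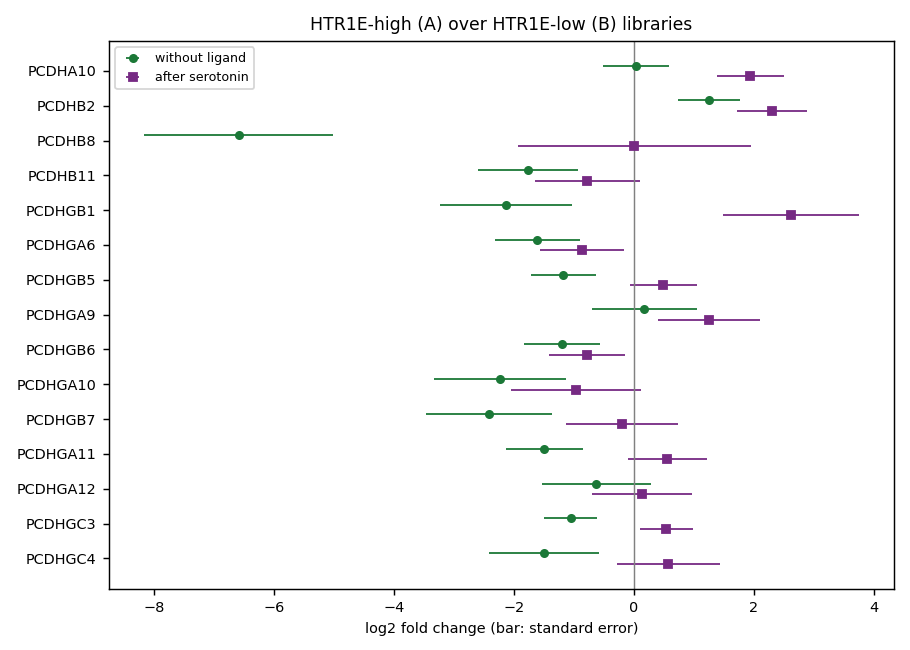
Log2 fold change of HTR1E-high over HTR1E-low libraries (x axis, bars are standard errors) for the 15 members that passed the filter (y axis), without ligand and after serotonin. Only PCDHB2 after serotonin, at 2.30, passed the test; the fitted value of PCDHB8 without ligand rests on 0 counts in the HTR1E-high pair and is no measure of size.

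Among the 38 members below the filter, 4 had no overlap in CPM between the letters. They are 4 of the 25 with a total of at least 10 counts, beside 6.13% of all genes below the filter with such totals, and 4 of the 34 with at least 1 count, beside 2.73% of all such genes. This is a description, for counts of 0 to 9 a library. PCDHB13 was higher in HTR1E-high libraries, with 6, 6, 8 and 6 counts against 0, 5, 1 and 0. PCDHB10, PCDHB14 and PCDHGB3 were lower, with PCDHB14 at 3, 2, 2 and 0 counts against 2, 9, 3 and 2 counts in libraries of other depths.

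Serotonin changed no member by the test in HTR1E-high libraries. In edgeR 0 of 15 members and 0% of all 17144 genes passed; 0 members and 62 genes (0.362%) had an unadjusted p under 0.05, and DESeq2 called 0 of either. PCDHGB1 had the smallest p of the members, at 0.32 and 0.295 CPM without ligand and 1.24 and 1.67 CPM with serotonin (log2 difference 2.17, SE 1, edgeR adjusted p = 1). These are 3 and 3 counts against 10 and 10. PCDHB2 differed by -0.61 (SE 0.468), PCDHGC4 by 1.12 (SE 0.864), PCDHGB7 by 1.29 (SE 1.02), PCDHA10 by 0.51 (SE 0.51) and PCDHGC3 by 0.23 (SE 0.429), each with an edgeR adjusted p of 1. PCDHB8 had 0 and 0 counts without ligand and 1 and 0 with serotonin, too few to compare.

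In HTR1E-low libraries 0 of 15 members passed in edgeR, beside 0.0117% of all genes; 6 members had an unadjusted p under 0.05, beside 26.5% of all genes, and DESeq2 called 0 members. All 15 differences were negative, with a median of -1.25 against 0.01 for all genes. The 8 non-clustered protocadherins tested were also all negative here, with a median of -1.3. Of those 8, 6 had an unadjusted p under 0.05 and DESeq2 called 4, so the common sign was not particular to the clustered members. How many of all genes DESeq2 called in this comparison is given below, under the dependence on processing. PCDHB8 went from 4 and 12 counts to 1 and 0 (edgeR adjusted p = 0.0963). PCDHGC3 differed by -1.37 (SE 0.45, edgeR adjusted p = 0.103), PCDHGB5 by -1.60 (SE 0.566, adjusted p = 0.117), PCDHB2 by -1.66 (SE 0.633, adjusted p = 0.133), PCDHGA11 by -1.66 (SE 0.661, adjusted p = 0.146) and PCDHA10 by -1.40 (SE 0.6, adjusted p = 0.168). The comparison sets B and BR without ligand, at 54.4% and 18.9% mitochondrial counts, against B and BR with serotonin, at 24.6% and 36.3%. Without B no ligand and BR serotonin, 0 of 18 members tested passed in edgeR, and the part of these libraries in the common sign was not tested further.

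The responses in the 2 sets differed past the threshold for 0 of 15 members, and for 0% of all genes, in edgeR. There were 4 members and 2564 genes (15%) with an unadjusted p under 0.05, and DESeq2 called 0 members and 43 genes. The members with the smallest p were PCDHGB1 (log2 difference 4.75, SE 1.58, adjusted p = 0.302), PCDHGC3 (1.59, SE 0.621, adjusted p = 0.308), PCDHA10 (1.91, SE 0.787, adjusted p = 0.318) and PCDHGA11 (2.05, SE 0.915, adjusted p = 0.33). PCDHB8 followed at an adjusted p of 0.338, on counts of 0 to 12. Without BR no ligand 3 members passed: PCDHGB1, PCDHA10 and PCDHGC3, at edgeR adjusted p of 0.0276, 0.0289 and 0.0452. That is 3 of 17 members tested in this refit, beside 18.9% of all genes, so the members' share was near the background.

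**Figure D5:**
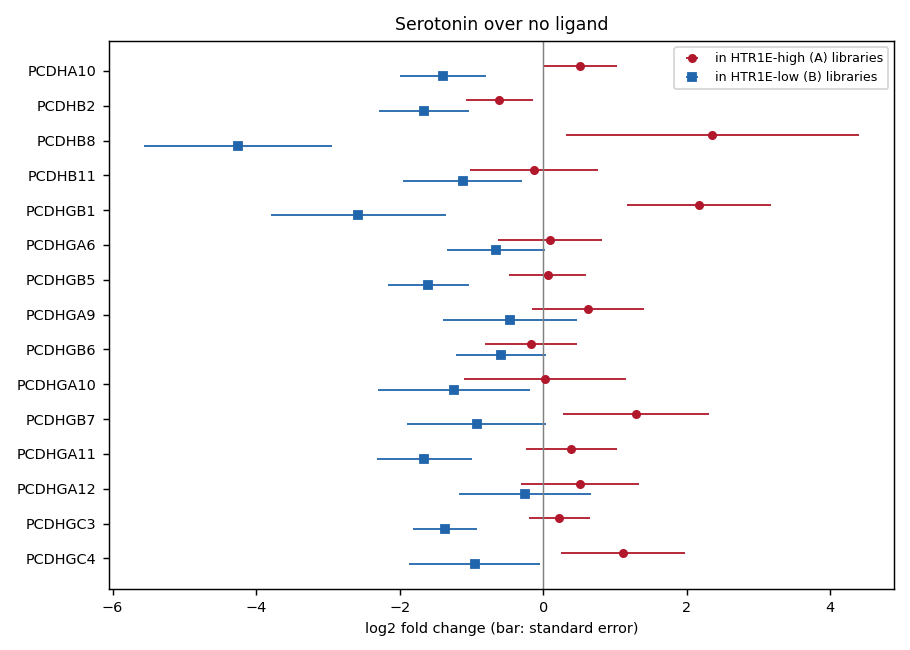
Log2 fold change of serotonin over no ligand (x axis, bars are standard errors) for the 15 members that passed the filter (y axis), in HTR1E-high and in HTR1E-low libraries. The HTR1E-low values are all below 0, with a median of -1.25, the HTR1E-high values lie on both sides of 0, and none passed the test.

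Factors that shape the arrays were described from a list of 20 genes: CTCF, the cohesin subunits and loaders, the silencer SMCHD1, DNA methyltransferases and TET enzymes among them. All 20 were tested, and 0 passed in any of the comparisons in edgeR. Without ligand 3 had an unadjusted p under 0.05, beside 19.2% of all genes, and DESeq2 called 1. After serotonin both counts were 0, where 24.3% of all genes had an unadjusted p under 0.05. For serotonin in HTR1E-low libraries 7 of 20 had an unadjusted p under 0.05, beside 26.5% of all genes, and DESeq2 called 1. All 7 were negative, among them the demethylation enzymes TET1 (-1.54, edgeR adjusted p = 0.109) and TET2 (-1.28, adjusted p = 0.108) and SMCHD1 (-0.96, adjusted p = 0.118). TET1 and TET2 were highest in B without ligand, at 70.3 and 58.7 CPM. CTCF, which binds the member promoters, was at 30.6 and 38.1 CPM without ligand and 33.2 and 34.6 CPM with serotonin in HTR1E-high libraries. It was at 51.3 and 44.5, then 35.2 and 41.4 CPM in HTR1E-low libraries, and B with serotonin overlapped the HTR1E-high range. SMCHD1 ranged from 101 to 140 CPM in HTR1E-high and from 79.4 to 235 CPM in HTR1E-low libraries, with overlap.

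Genes that flank or lie between the arrays did not pass either: 0 of 14 tested in each comparison in edgeR. Of the 14, 4 had an unadjusted p under 0.05 without ligand, beside 19.2% of all genes, and DESeq2 called 0. After serotonin 3 did, beside 24.3% of all genes, and DESeq2 called 1. TAF7, a subunit of the transcription factor TFIID whose gene sits between the beta and gamma arrays, stood at 55.1 to 68.3 CPM in HTR1E-high libraries. In HTR1E-low libraries it stood at 39.2 CPM in B without ligand and at 81.9 to 92 CPM in the other 3.

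Non-clustered protocadherins are single genes elsewhere in the genome. Of 12 listed, 8 were tested. PCDH19, a delta protocadherin, was higher in HTR1E-high libraries, at 34 and 34.4 CPM without ligand and 37.8 and 41.6 CPM with serotonin against 8.06 and 4.51, then 3.54 and 2.01 CPM. No HTR1E-low value came near the HTR1E-high ones. The log2 difference was 2.597 (SE 0.356, edgeR adjusted p = 0.00446) without ligand and 3.80 (SE 0.358, adjusted p = 0.000434) after serotonin. PCDH10 passed after serotonin (1.72, SE 0.286, edgeR adjusted p = 0.00941), at 44.6 and 54.3 CPM against 15.6 and 14.4 CPM. Without ligand it stood at 53.6 and 59 CPM against 49.5 and 32.6 CPM (0.48, SE 0.279, edgeR adjusted p = 0.369), and the change between these differences did not pass (1.23, SE 0.396, edgeR adjusted p = 0.302). The list's median difference was -0.84 without ligand and 0.53 after serotonin.

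Of 14 classical cadherins, 10 were tested, and CDH3, P-cadherin, was higher in HTR1E-high libraries both without ligand (1.57, SE 0.298, edgeR adjusted p = 0.0212) and after serotonin (1.72, SE 0.287, adjusted p = 0.00944). It stood at 26.4 to 33.7 CPM in HTR1E-high and 8.06 to 13.2 CPM in HTR1E-low libraries. Averaged over both treatments 4 of the 10 passed, 2 higher and 2 lower, beside 9.36% of all genes (5.27% higher and 4.09% lower). CDH3 and CDH11 (0.94, SE 0.235, edgeR adjusted p = 0.0297) were higher. CDH20 was lower (-3.10, SE 0.613, edgeR adjusted p = 0.0103), with 1, 2, 3 and 1 counts in HTR1E-high and 5, 17, 17 and 7 counts in HTR1E-low libraries. CDH12 was also lower (edgeR adjusted p = 0.0101), with 0, 0, 0 and 1 counts against 6, 10, 12 and 7. CDH12 and CDH20 passed the low-count filter only through HTR1E-low libraries, where they were high, so their p-values are no independent support. Of 17 intracellular partners, 16 were tested, and CTNNB1, beta-catenin, passed after serotonin (1.32, SE 0.285, edgeR adjusted p = 0.0264), at 164 and 183 CPM against 74 and 64.5 CPM. Without ligand 0 partners passed in edgeR, 1 had an unadjusted p under 0.05, beside 19.2% of all genes, and DESeq2 called 0.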

How the data were processed

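The deposited table holds unnormalised counts in 8 columns, made by the authors with featureCounts 2.0.1 (per the file headers) on read pairs, reverse-stranded, with GENCODE release 28 and no option for multi-mapping or multi-gene pairs, so pairs in constant exons shared by alpha or gamma members add to no member. The exonic length, another deposited column, has the same source. Per the submitters' processing notes, reads were aligned to hg38 with STAR 2.7.8a. Symbols were found for 57799 of 58440 genes and completed from GENCODE release 29. Columns were placed in treatment groups by the word in their names and in letter sets by the letter, and no column was left unused. The comparisons were tested with edgeR 4.0.16 (quasi-likelihood, TMM, filterByExpr, 4 means over all 8 libraries, Benjamini-Hochberg over 17144 genes, threshold 0.05). The scripts were tested on simulated data. Alternatives used DESeq2 1.42.0, its size factors, other filters, left-out libraries and blocks. Members named with full statistics were, by rule, the 10 with the smallest adjusted p in each comparison (5 for serotonin responses), the most expressed of each cluster and the 5 C-type isoforms. The members and lists were chosen with earlier descriptions of these data known.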

Additional observations from a re-analysis of the deposited data

Results flagged for a closer look

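In each treatment, the 4 libraries were checked for 1 that stood far from the other 3, over the 15 tested members and the 3 cluster sums. This marked 7 of 36 checks; chance marks about 1 in 20 for independent checks of uniform groups. Here each group of 4 holds both letter sets and the members share libraries, so that rate is no yardstick for the 7. In B without ligand, 4 members stood high: PCDHGA10 at 10.4 CPM (others 0.534 to 1.28), PCDHGB7 at 5.18 CPM (0.214 to 0.77), PCDHGA12 at 2.3 CPM (0.591 to 0.854) and PCDHGC4 at 3.46 CPM (0.534 to 0.991). In B with serotonin, PCDHGA6 at 2.32 CPM (others 0.867 to 1.01) and PCDHGA10 at 2.56 CPM (0.867 to 1.01) stood high. In BR with serotonin, PCDHGC3 stood low at 3.35 CPM (others 9.04 to 9.19). All 7 marked values were in HTR1E-low libraries, and the mitochondrial shares of those 3 libraries were 54.4%, 24.6% and 36.3%.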

How the results depend on the processing

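In the 692 refits of member fold changes, 639 kept their direction and their side of the threshold, 29 gained a call, 12 lost one and 12 turned direction. With DESeq2, the genes called were 827 without ligand, 1515 after serotonin, 1470 for serotonin in HTR1E-low libraries and 43 for the difference of responses, against 415, 900, 2 and 0 in edgeR, and the members called without ligand were 1. With no low-count filter, 35617 genes and 49 members were tested. The genes called were then 1117, 1985, 1830 and 570, and the members called were 1, 2, 2 and 0. With at least 50 counts in 2 libraries, members called after serotonin and over both treatments were 0 and 0 of 3 tested, since PCDHB2 was not tested. The refit described next tested 18303 genes and 18 members. Without the 2 libraries richest in mitochondrial counts, an alternative chosen after seeing the data, genes called were 1542, 1850, 84 and 7, and 3529 over both treatments; members called were 2 after serotonin and 2 over both.

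Leaving out 1 library at a time gave 60 to 3693 genes without ligand, 83 to 3347 after serotonin, 0 to 0 for serotonin in HTR1E-high libraries, 0 to 4846 in HTR1E-low libraries, 0 to 3482 for the difference and 514 to 3520 over both treatments. The members called ran from 0 to 2, 0 to 2, 0 to 0, 0 to 5, 0 to 3 and 0 to 3, in that order. These refits tested 18319 to 18645 genes and 17 to 21 members, and the member counts are to be read beside the gene counts. A lone remaining library was assumed to vary like the other sets. Directions turned as follows. PCDHA10 without ligand was -9.6e-05 with DESeq2 size factors and -0.06 with DESeq2, and ran from -0.548 (without BR no ligand) to 0.535 with 1 library left out. PCDHGA10 without ligand ran from -3.434 to 0.414 (without B no ligand), and was 0.446 without the 2 mitochondria-rich libraries. After serotonin, PCDHGB5 ran from -0.206 to 1.045 and PCDHGC4 from -0.518 to 1.243, both negative without 1 of the 2 HTR1E-high serotonin libraries. For serotonin in HTR1E-high libraries, PCDHA10 ran from -0.12 to 1.036 and PCDHGC3 from -0.012 to 0.486. Over both treatments PCDHGC3 ran from -0.508 to 0.167 (without B serotonin). PCDHGC4 for serotonin in HTR1E-low libraries was 0.136 without the 2 mitochondria-rich libraries. The cause was not tested.

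With the letters of the library name as a replicate block, the genes called were 2218 for serotonin in HTR1E-low libraries and 250 for the difference of responses, and the members called were 4 and 0. The names share letters but no label says that they pair cultures, and deviations of same-named libraries correlated at 0.00415 (A) and 0.0788 (B) over 17144 genes, so the block is not used elsewhere. Depth limits all of this, with 2883 counts in all members together.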
